A study of Homo sapiens with 17 samples.

Results

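The genes described here are those of the Wnt pathway and its best known transcriptional targets, measured by mRNA sequencing in SW480 colon cancer cells. They were chosen by name. Every WNT, FZD, DKK1 to DKK4 and SFRP gene was taken, together with AXIN1, AXIN2, APC, CTNNB1, LRP5, LRP6, LGR4, LGR5, RNF43, ZNRF3, NKD1, NKD2, TCF7, TCF7L1, TCF7L2, LEF1, ASCL2, SP5, NOTUM and APCDD1. Of the 26457 genes listed, 57 matched, and the 46 whose values averaged 2.5 normalized reads or more over the 8 libraries are compared below, as part of the 14800 genes that reached this mean.

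Wnt proteins are secreted, lipid-modified ligands that bind Frizzled (FZD) receptors and the co-receptors LRP5 and LRP6. Without a ligand, a destruction complex built on APC and AXIN marks β-catenin (CTNNB1) for degradation, and with a ligand β-catenin accumulates, enters the nucleus and activates genes together with TCF/LEF factors. Several of those target genes encode inhibitors of the same pathway, among them AXIN2, NKD1, NOTUM, RNF43, ZNRF3, APCDD1 and DKK4. The pathway maintains the stem cells of the intestinal crypt, and in most colon cancers, SW480 included, APC is truncated and β-catenin signalling is constitutively on.

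SW480 is a human colon cancer line with mutant p53 (mutp53). The study asked how mutp53 shapes the response to chronic TNF-α, an inflammatory cytokine, and compared 4 groups of 2 biological replicates, A and B. Control cells carried a doxycycline-inducible short hairpin RNA against LacZ and mutp53-depleted cells one against p53, and each line was harvested untreated (0 h) or after TNF-α for 16 h at 12.5 ng/ml. All 4 groups grew in puromycin and doxycycline, so the hairpin was induced in the controls too. Each hairpin is represented by 1 stable line, and a difference between the lines that does not come from p53 cannot be told apart from depletion.

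Values are normalized reads, meaning reads on the exons of a RefSeq gene scaled by the authors so that all 8 libraries share 1 total. One read was worth between 0.67 and 1.515 normalized reads, and 6108488 to 13809578 reads per library fell on genes. Changes were tested with limma as log2(normalized reads + 1) over the 14800 genes, and each adjusted p below is limma's with Benjamini-Hochberg adjustment over all of them. SE is the standard error of the log2 change. A call needed an adjusted p under 0.05 together with a change of 2-fold or more. The interaction, which is the TNF-α response of mutp53-depleted cells less that of control cells, needed the adjusted p alone. The added 1 draws the changes of weakly expressed genes towards 0. Because logs are averaged, a fitted change can still exceed the ratio of pooled reads where 1 replicate has no read. Each group serves a depletion and a TNF-α comparison, so these share libraries and are not independent of each other.

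More Wnt genes were lower than higher after mutp53 depletion. At 0 h 12 of the 46 were called lower and 4 higher, or 26.1% and 8.70%, where 9.55% of all tested genes were called lower and 5.89% higher. At 16 h 17 were called lower and 5 higher, or 37.0% and 10.9%, where 10.2% of all tested genes were called lower and 5.03% higher. The median log2 change of the 46 was -0.33 at 0 h and -0.35 at 16 h, and that of all tested genes was 0.03 and -0.01. At both times 11 were lower, where 6.82% of all tested genes were, namely DKK4, WNT7A, NOTUM, APCDD1, ASCL2, WNT6, WNT10A, SFRP5, FZD8, FZD9 and LRP5. At both times 3 were higher, where 3.35% of all tested genes were, namely FZD2, DKK1 and WNT9A. LRP6 (higher) and WNT4 (lower) were called at 0 h alone, and NKD2, SP5, FZD1, WNT16, FZD10 and WNT7B (lower) and LEF1 and WNT10B (higher) at 16 h alone.

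**Figure D1:**
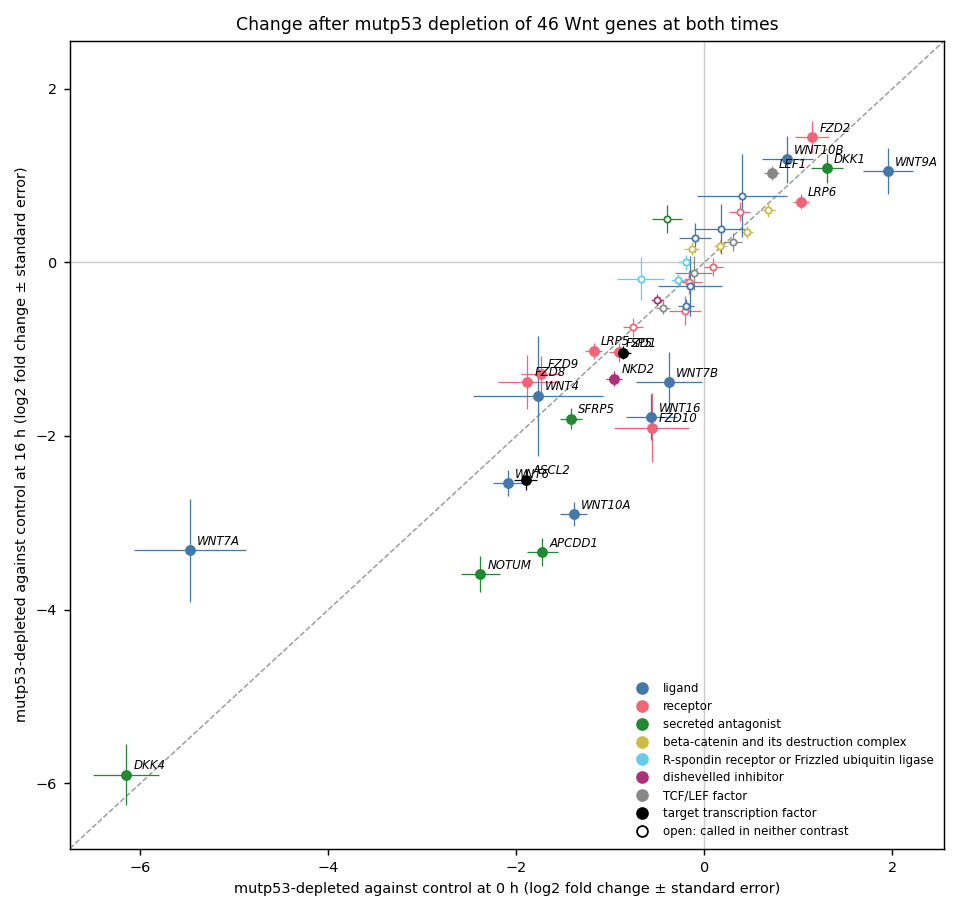
Log2 fold change of mutp53-depleted against control cells at 0 h (horizontal) and at 16 h (vertical) for the 46 Wnt genes, coloured by role, with bars of 1 standard error on each axis. Filled, named points were called at one time or both, and DKK4, WNT7A, NOTUM and APCDD1 lie farthest below 0 in the lower left.

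TNF-α also lowered more of these genes than it raised. In control cells 8 were called lower and 5 higher, or 17.4% and 10.9%, where 4.27% of all tested genes were called lower and 2.97% higher. For mutp53-depleted cells the calls were 8 lower and 3 higher, or 17.4% and 6.52%, where 4.5% of all tested genes were called lower and 1.86% higher. The median log2 change of the 46 was -0.35 for control cells and -0.40 for mutp53-depleted cells, and that of all tested genes was -0.05 and -0.06. DKK4, ASCL2 and WNT11 fell in both lines (2.3% of all tested genes fell in both), and DKK1 and WNT9A rose in both (1.39% rose in both). A further 8 were called in control cells alone, namely SFRP5, WNT10A and WNT5A (higher) and NKD1, FZD2, LGR4, DKK3 and WNT5B (lower). A further 6 were called in mutp53-depleted cells alone, namely WNT7A (higher) and WNT6, NOTUM, APCDD1, NKD2 and SP5 (lower). A call in 1 line alone is not a difference between the lines. That difference was tested by the interaction, in which 3 genes were called lower (NOTUM, APCDD1 and WNT10A) and 1 higher (DKK3), where 2.21% of all tested genes were called lower and 0.655% higher.

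**Figure D2:**
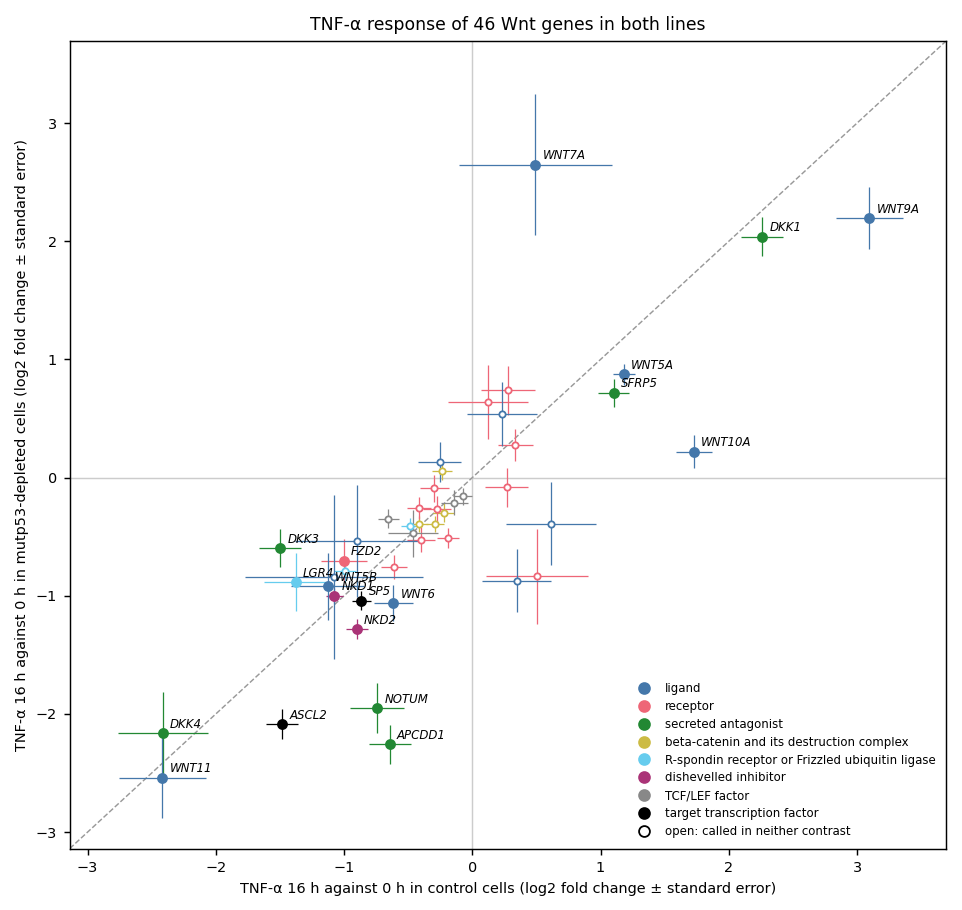
Log2 fold change from 0 h to 16 h of TNF-α in control cells (horizontal) and in mutp53-depleted cells (vertical) for the same 46 genes, with bars of 1 standard error, the dashed line marking equal responses. WNT9A and DKK1 lie in the upper right, DKK4, WNT11 and ASCL2 in the lower left, and APCDD1, NOTUM and WNT10A below the line.

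Of the 57 genes, 11 were below the mean of 2.5 and entered no test. DKK2, SFRP1, WNT8A and WNT9B had no read in any library, a count at which up to 3 reads per library cannot be told from none. SFRP2, WNT1, WNT2, WNT2B, WNT3A, SFRP4 and LGR5 had a few reads in some libraries. Nearest the minimum were WNT4 above it, with a mean of 3.46 normalized reads, and SFRP4 and LGR5 below it with 1.45 each, and the next tested gene, WNT8B, was well above it at 18.5. A gene expressed in 1 group alone can pass such a mean only through that group, so counts over the 46 do not describe all 57. Of the 46, 30 were called in at least 1 of the 5 contrasts and 16 in none, where 25.9% of all tested genes were called in at least 1.

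Promoters of the tested genes were searched for the TCF/LEF core TCAAAG on both strands (CTTTGA on the other) in the window from 250 bases before to 50 bases after the RefSeq start on GRCh38.p14. A promoter sequence was available for 30 of the 46 genes. The 16 without one were not searched, and they include the targets AXIN2, NKD1, NOTUM, ASCL2, DKK4 and ZNRF3. Of the 30 genes, 2 held the core, SP5 and DKK1, and both are printed because each was called in at least 1 contrast. The 30 genes had 37 promoter entries, of which 5.41% held at least 1 match. Over all 35116 promoter entries of this length 12.9% held at least 1 match, 1.29% at least 2 and 0.0997% at least 3. The SP5 window (chr2:170715087-170715386, plus strand) held 3 matches and the DKK1 window (chr10:52314031-52314330, plus strand) held 2, in capitals below. A match is a description of these letters and not a binding site.
SP5: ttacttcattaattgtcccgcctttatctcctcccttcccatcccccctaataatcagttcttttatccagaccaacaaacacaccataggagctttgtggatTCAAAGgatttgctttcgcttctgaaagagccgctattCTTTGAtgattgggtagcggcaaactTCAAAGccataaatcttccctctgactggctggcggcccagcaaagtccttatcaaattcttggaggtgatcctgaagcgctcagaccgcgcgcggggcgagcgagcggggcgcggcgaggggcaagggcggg
DKK1: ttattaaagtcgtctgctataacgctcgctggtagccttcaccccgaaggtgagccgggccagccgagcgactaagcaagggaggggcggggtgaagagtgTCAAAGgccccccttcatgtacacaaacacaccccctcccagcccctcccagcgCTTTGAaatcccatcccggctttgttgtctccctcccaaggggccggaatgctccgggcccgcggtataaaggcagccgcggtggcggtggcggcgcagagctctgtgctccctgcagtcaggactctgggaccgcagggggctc

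Among the 13 ligands tested, depletion lowered WNT6, WNT10A and WNT7A at both times and raised WNT9A at both times. WNT6 (chr2:219724546-219738954, plus strand, hg19) and WNT10A (chr2:219745255-219758651, plus strand) are neighbours on chromosome 2 with 6300 bases and no listed gene between them. WNT6 stood at 2249 and 2363 normalized reads in controls at 0 h and 1692 and 1337 at 16 h, whereas mutp53-depleted cells had 615 and 473 at 0 h and 318 and 209 at 16 h. No mutp53-depleted library reached a control library at either time (log2 -2.09, SE 0.15, adjusted p = 2.4e-09 at 0 h and log2 -2.54, SE 0.15, adjusted p = 1.9e-10 at 16 h). Under TNF-α WNT6 fell in mutp53-depleted cells (log2 -1.06, SE 0.15, adjusted p = 3.5e-05), and in control cells it missed the fold of 2 (log2 -0.62, SE 0.15, adjusted p = 0.0051). The TNF-α call in mutp53-depleted cells sat on the fold threshold. It was missed without mutp53-depleted 0 h replicate A (log2 -0.88) and without mutp53-depleted 16 h replicate B (log2 -0.76), with DESeq2 (-0.98), with both edgeR tests (-0.98 each) and after median ratio scaling (-0.999). The interaction, not called over all libraries, was called without mutp53-depleted 16 h replicate A (log2 -0.75).

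WNT10A is a ligand known for its part in the development of teeth, skin and hair. It stood at 345 and 408 normalized reads in controls at 0 h and rose to 1350.5 and 1142 with TNF-α (log2 1.73, SE 0.14, adjusted p = 2.9e-08). In mutp53-depleted cells it stood at 160.2 and 126 at 0 h and 189 and 146 at 16 h, all 4 below the lowest control library, and the change with TNF-α was not called (log2 0.22, SE 0.14, adjusted p = 0.27). The control libraries at 16 h were thus the highest of the 8, and the gap between the lines was wider at 16 h (log2 -2.90, SE 0.14, adjusted p = 1.5e-11) than at 0 h (log2 -1.39, SE 0.14, adjusted p = 1.7e-07). The difference between the TNF-α responses was itself called (log2 -1.51, SE 0.20, adjusted p = 0.0002), and it was called under each of the 17 alternatives as well.

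WNT5A, a ligand best known for signalling that does not use β-catenin, moved mainly with TNF-α. It stood at 2566 and 2383 normalized reads in controls at 0 h and 5911 and 5339 at 16 h, whereas mutp53-depleted cells had 2293 and 2035 at 0 h and 4346 and 3604 at 16 h. The 0 h and 16 h libraries did not overlap in either line. The rise was called in control cells (log2 1.18, SE 0.09, adjusted p = 8.6e-09) and missed the fold of 2 in mutp53-depleted cells (log2 0.87, SE 0.09, adjusted p = 6.4e-07), where it was called without mutp53-depleted 16 h replicate B (log2 1.01). The responses did not differ by the interaction (log2 -0.31, SE 0.12, adjusted p = 0.25). WNT5B, its closest relative, stood at 43.5 and 49.99 (0 h) and 20.3 and 21.3 (16 h) in control cells and at 67.7 and 41.1 (0 h) and 27.7 and 27.1 (16 h) in mutp53-depleted cells. It fell with TNF-α in control cells (log2 -1.13, SE 0.29, adjusted p = 0.0064), a call lost without control 0 h replicate B (log2 -1.03) and with DESeq2 (log2 -1.11). In mutp53-depleted cells the fall was not called (log2 -0.92, SE 0.29, adjusted p = 0.023), and it was called without mutp53-depleted 0 h replicate B (log2 -1.27) and with both edgeR tests.

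WNT9A, a ligand with roles in the developing skeleton, rose with depletion and with TNF-α. It stood at 19.6 and 9.09 normalized reads in controls at 0 h, 50.9 and 58.96 after depletion, 131 and 114 in controls at 16 h and 246 and 263 with both depletion and TNF-α. The 4 groups did not overlap and kept this order. TNF-α raised it in control cells (log2 3.10, SE 0.26, adjusted p = 4.5e-08) and in mutp53-depleted cells (log2 2.19, SE 0.26, adjusted p = 4.7e-06), and depletion raised it at 0 h (log2 1.95, SE 0.26, adjusted p = 5.3e-06) and at 16 h (log2 1.05, SE 0.26, adjusted p = 0.0025). The 16 h call of depletion was missed without control 16 h replicate B (log2 0.95). The interaction was not called (log2 -0.90, SE 0.37, adjusted p = 0.26), but it was without control 0 h replicate A (log2 -1.42).

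WNT7A, a ligand of the female reproductive tract and the nervous system, was nearly lost from mutp53-depleted cells. It stood at 142 and 124 normalized reads in controls at 0 h and 198 and 176 at 16 h, whereas mutp53-depleted cells had 8.04 and 0 at 0 h and 18.4 and 17.3 at 16 h. In reads, the control libraries at 0 h held 277 and the mutp53-depleted libraries 12, a ratio of 25.2 at equal depth with an exact 95% interval of 14.2 to 49.3 that covers counting error alone. The fitted changes were called at 0 h (log2 -5.47, SE 0.59, adjusted p = 4.2e-07) and at 16 h (log2 -3.32, SE 0.59, adjusted p = 0.00013). Within mutp53-depleted cells the reads rose from 12 to 36 with TNF-α, a ratio of 3.33 (1.69 to 7.02), and this was called (log2 2.65, SE 0.59, adjusted p = 0.0026), while the change in control cells was not (log2 0.49, SE 0.59, adjusted p = 0.6). These fitted changes, 44.4-fold for depletion at 0 h and 6.27-fold for TNF-α in mutp53-depleted cells, are larger than the read ratios. Both use the mutp53-depleted 0 h replicate with no read. The interaction was not called over all libraries (log2 2.16, SE 0.84, adjusted p = 0.23), and it was without mutp53-depleted 0 h replicate A (log2 3.74).

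WNT11, a ligand of β-catenin-independent signalling, changed with TNF-α and not detectably with depletion. It stood at 66.04 and 69.7 normalized reads in controls at 0 h and 16.4 and 8.54 at 16 h, whereas mutp53-depleted cells had 66.3 and 56.2 at 0 h and 7.55 and 12.3 at 16 h. Each 16 h library lay below each 0 h library (log2 -2.42, SE 0.34, adjusted p = 2.8e-05 in control cells and log2 -2.54, SE 0.34, adjusted p = 1.9e-05 in mutp53-depleted cells), and the depletion changes of -0.15 and -0.27 were within 1 SE of 0.34.

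The other ligands called were scarce. WNT16 stood at 44.3 and 51.5 (0 h) and 68.6 and 54.1 (16 h) normalized reads in control cells and at 35.5 and 28.8 (0 h) and 16.8 and 17.3 (16 h) in mutp53-depleted cells, and was lower after depletion at 16 h (log2 -1.78, SE 0.27, adjusted p = 2.1e-05). Its fall with TNF-α in mutp53-depleted cells missed the fold of 2 (log2 -0.87, SE 0.27, adjusted p = 0.021) and was called without mutp53-depleted 0 h replicate B (log2 -1.02). WNT7B stood at 23.2 and 16.7 (0 h) and 29.97 and 31.3 (16 h) in control cells and at 14.7 and 15.1 (0 h) and 10.1 and 12.3 (16 h) in mutp53-depleted cells, and was lower after depletion at 16 h (log2 -1.38, SE 0.35, adjusted p = 0.0028). The mutp53-depleted libraries of these genes did not overlap the controls at 16 h. WNT10B stood at 38.5 and 22.7 (0 h) and 35.8 and 34.1 (16 h) in control cells and at 49.6 and 61.7 (0 h) and 91.4 and 71.6 (16 h) in mutp53-depleted cells, and was higher after depletion at 16 h (log2 1.19, SE 0.27, adjusted p = 0.0012). At 0 h it was not called (log2 0.88, SE 0.27, adjusted p = 0.011), though it was without control 0 h replicate A (log2 1.25) and without mutp53-depleted 0 h replicate A (log2 1.04). At 0 h WNT4 held 16 reads in controls and 4 in mutp53-depleted cells, a ratio of 4.36 (1.41 to 17.9), and was called lower (log2 -1.77, SE 0.69, adjusted p = 0.039). That call was lost when any of the 4 libraries at 0 h was left out: without control 0 h replicate A (log2 -1.92), without control 0 h replicate B (log2 -1.63), without mutp53-depleted 0 h replicate A (log2 -1.95) and without mutp53-depleted 0 h replicate B (log2 -1.60). It was also lost with DESeq2 and with added constants of 0.1 and 5. At 16 h, with 6 reads against 1, WNT4 was not called (log2 -1.54, SE 0.69, adjusted p = 0.073), and it was without mutp53-depleted 16 h replicate B (log2 -2.11) and with no filter on low values. WNT3 was called in no contrast. WNT8B was called in none over all libraries, with 4.83 and 18.49 normalized reads in controls at 16 h. Without control 16 h replicate B it was called for depletion at 16 h and for TNF-α in control cells.

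Per kb of exon, which allows genes to be compared, the ligand mRNAs changed both in sum and in make-up. The 19 WNT genes summed to 2129 and 2171 normalized reads per kb in controls at 0 h and 2849 and 2425 at 16 h, whereas mutp53-depleted cells had 994 and 849 at 0 h and 1293 and 1096 at 16 h. At either time both mutp53-depleted libraries were below both controls. WNT6 made up 62.4% and 64.3% of the sum in controls at 0 h and 35.05% and 32.5% at 16 h, and after depletion 36.5% and 32.9% at 0 h and 14.5% and 11.2% at 16 h. WNT5A made up 19.5% and 17.8%, 33.6% and 35.7%, 37.4% and 38.8% and 54.5% and 53.3% in the same order. The leading ligand was thus WNT6 in control cells at 0 h and WNT5A in mutp53-depleted cells at both times, while in control cells at 16 h the 2 replicates differed in which of the pair led. WNT9A reached 15.4% and 19.4% in mutp53-depleted cells at 16 h, from 0.75% and 0.34% in control cells at 0 h. WNT10A reached 20.01% and 19.9% in control cells at 16 h and lay between 5.61% and 7.92% in the other libraries. These are shares of mRNA in bulk cultures, where fewer expressing cells and less mRNA per cell cannot be told apart.

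**Figure D3:**
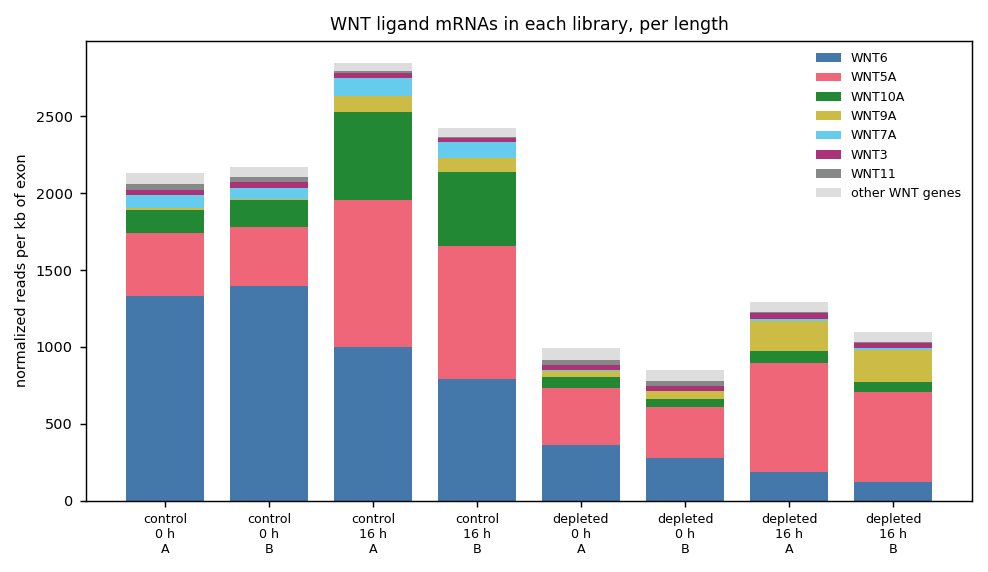
Normalized reads per kb of exon of the WNT ligand genes in each of the 8 libraries, stacked by gene. The bars sum to between 849 and 2849, WNT6 being the largest segment in control cells at 0 h and WNT5A in mutp53-depleted cells at 16 h.

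All 10 FZD genes and both LRP co-receptors passed the minimum. FZD7 was the most abundant Frizzled mRNA per kb in every library, with 27.1% to 40.4% of the FZD sum, and it was called in no contrast. The FZD sum was 595 and 591 normalized reads per kb in controls at 0 h and 538 and 438 at 16 h, whereas mutp53-depleted cells had 578 and 530.5 at 0 h and 457 and 397 at 16 h. At 0 h both mutp53-depleted libraries were below both controls, and at 16 h the lines overlapped. FZD3, FZD4, FZD5 and FZD6 were likewise called in no contrast.

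Among the receptors called, FZD8 and FZD9 were lower after depletion at both times. FZD9 stood at 126 and 117 normalized reads in controls at 0 h and 177 and 122 at 16 h, whereas mutp53-depleted cells had 32.8 and 38.4 at 0 h and 64.5 and 55.5 at 16 h (log2 -1.74, SE 0.21, adjusted p = 1.4e-06 and log2 -1.28, SE 0.21, adjusted p = 4.7e-05). FZD8 stood at 58.8 and 43.9 (0 h) and 67.7 and 45.5 (16 h) in control cells and at 15.4 and 10.97 (0 h) and 18.4 and 23.4 (16 h) in mutp53-depleted cells (log2 -1.89, SE 0.31, adjusted p = 5.7e-05 and log2 -1.37, SE 0.31, adjusted p = 0.0012). The lines did not overlap for either gene. FZD10 was called lower at 16 h alone, with 45.4 and 27.03 against 7.55 and 9.87 (log2 -1.90, SE 0.40, adjusted p = 0.00059). FZD1 had 381 and 343 against 185 and 167 at 16 h (log2 -1.04, SE 0.11, adjusted p = 2.3e-07) and sat on the fold threshold, its call being missed without control 16 h replicate A (log2 -0.96) and without mutp53-depleted 16 h replicate B (log2 -0.96). FZD2 went the other way.

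FZD2 stood at 134 and 103 normalized reads in controls at 0 h and 65.7 and 51.2 at 16 h, whereas mutp53-depleted cells had 292 and 233 at 0 h and 174 and 147 at 16 h. Depletion raised it at 0 h (log2 1.15, SE 0.18, adjusted p = 3.3e-05) and at 16 h (log2 1.44, SE 0.18, adjusted p = 2.3e-06), with no overlap of the lines at either time. The 0 h call was missed without control 0 h replicate B (log2 0.96) and without mutp53-depleted 0 h replicate A (log2 0.98). TNF-α lowered it in control cells (log2 -1.003, SE 0.18, adjusted p = 0.00035), a call at the fold threshold that was missed without control 0 h replicate A (log2 -0.82), without control 16 h replicate B (log2 -0.83), with DESeq2, with both edgeR tests, after median ratio scaling and with an added constant of 5.

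The co-receptors LRP5 and LRP6 moved in opposite directions after depletion. LRP5 stood at 2476 and 2657 normalized reads in controls at 0 h and 2080.4 and 1778 at 16 h, whereas mutp53-depleted cells had 1183 and 1085 at 0 h and 1039.6 and 866 at 16 h (log2 -1.18, SE 0.09, adjusted p = 6.6e-09 and log2 -1.02, SE 0.09, adjusted p = 4e-08). LRP6 stood at 665 and 761 (0 h) and 619.7 and 629 (16 h) in control cells against 1506 and 1392 (0 h) and 1076 and 956 (16 h) in mutp53-depleted cells (log2 1.02, SE 0.09, adjusted p = 1.6e-08 and log2 0.70, SE 0.09, adjusted p = 1.9e-06). Neither gene overlapped between the lines, and the LRP6 change at 16 h was below the fold of 2. The LRP5 call at 16 h was missed without control 16 h replicate A (log2 -0.91) and without mutp53-depleted 16 h replicate B (log2 -0.89). The LRP6 call at 0 h was missed without control 0 h replicate A (log2 0.93) and without mutp53-depleted 0 h replicate A (log2 0.97).

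Around some of these genes the neighbouring genes were shifted in the same direction between the lines. How common such shifts are over the whole genome was not tested. For each gene the median depletion change of the window of 51 tested genes around it on its chromosome was taken. That median was 1.06 at 0 h and 0.81 at 16 h around LRP6 on chromosome 12, close to the change of LRP6 itself, 0.53 and 0.48 around FZD2 on chromosome 17, and -0.48 and -0.37 around LRP5 on chromosome 11. As an alternative, the window's median of the mean change over both times, a single value per gene, was subtracted from the mutp53-depleted libraries. It was 0.87 for LRP6, 0.49 for FZD2 and -0.37 for LRP5. With it removed, LRP6 at 0 h (0.16), FZD2 (0.66 and 0.95) and LRP5 (-0.81 and -0.65) were no longer called, nor at 16 h were FZD9 (-0.80), FZD1 (-0.74), NKD2 (-0.83), LEF1 (0.88) and WNT10B (0.74). This left 13 calls at 0 h and 15 at 16 h. The medians around DKK4, NOTUM, APCDD1 and WNT7A lay between -0.09 and 0.08, and those around WNT6 and WNT10A between -0.256 and -0.125. Whether the lines differ in chromosome copy number was not tested.

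**Figure D4:**
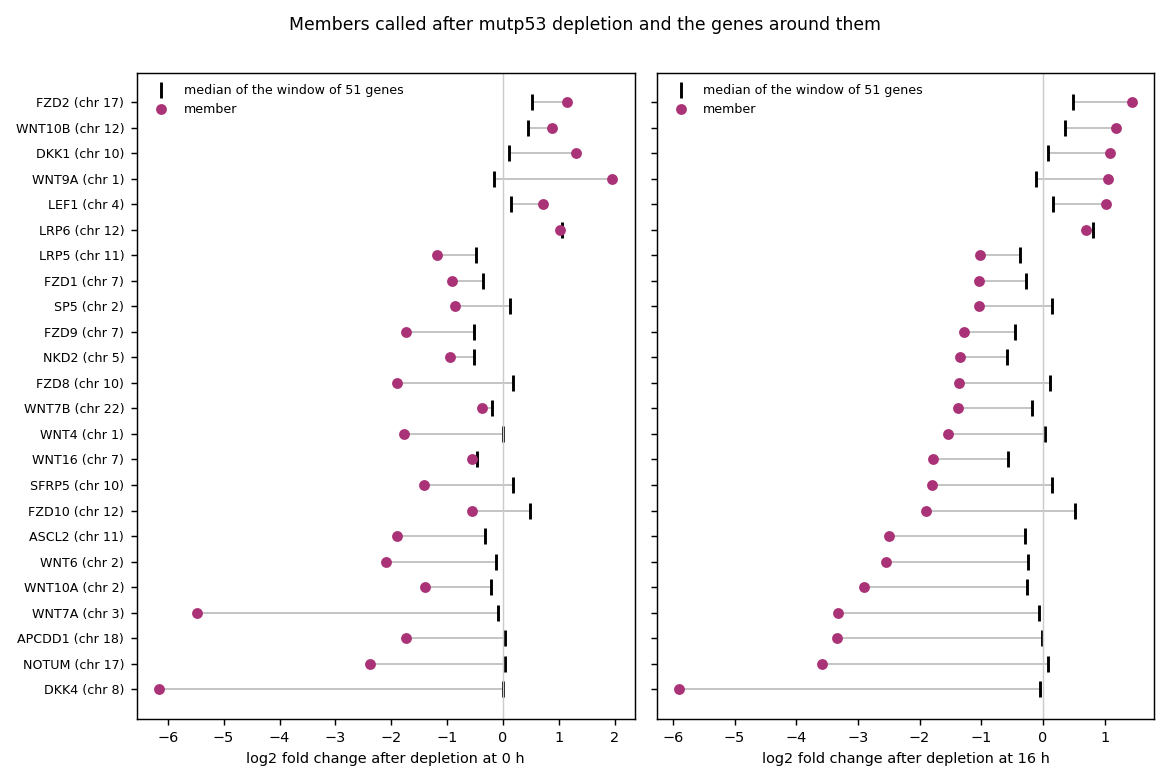
Log2 fold change after mutp53 depletion of the 24 Wnt genes called at 0 h or 16 h (points), with the median of the window of 51 tested genes around each (black ticks), at 0 h on the left and 16 h on the right. The point of LRP6 lies on or next to its tick, whereas those of DKK4, WNT7A, NOTUM and APCDD1 lie far from theirs.

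Grouped here as antagonists were the DKK and SFRP genes, NOTUM and APCDD1, whereas the ligases RNF43 and ZNRF3 were counted apart. Of the 6 tested, 5 were called after depletion at each time. The share of all tested genes called in either direction was 15.4% at 0 h and 15.2% at 16 h. Of the 6, 4 were lower after depletion at both times (DKK4, NOTUM, APCDD1 and SFRP5), 1 was higher at both times (DKK1), while DKK3 was called at neither. Their median log2 change was -1.57 at 0 h and -2.57 at 16 h, beside 0.03 and -0.01 for all tested genes.

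DKK4, a secreted protein that blocks LRP6, showed the largest change of the 46 genes. It stood at 429.6 and 432 normalized reads in controls at 0 h and 71.5 and 89.6 at 16 h, whereas mutp53-depleted cells had 4.69 and 5.48 at 0 h and 0.84 and 0 at 16 h. The 4 groups did not overlap. In reads, 877 in control cells at 0 h faced 11 in mutp53-depleted cells, a ratio of 86.9 at equal depth (48.3 to 174.7), and at 16 h 137 faced 1, a ratio of 158 (27.9 to 6284). Both changes were called (log2 -6.15, SE 0.35, adjusted p = 1.1e-10 and log2 -5.90, SE 0.35, adjusted p = 1.7e-10). TNF-α lowered DKK4 in control cells (log2 -2.41, SE 0.35, adjusted p = 3.5e-05). In mutp53-depleted cells, where 11 reads went to 1 with a ratio of 9.92 (1.44 to 427), the fall was called too (log2 -2.16, SE 0.35, adjusted p = 0.00013), but not with DESeq2 or with an added constant of 5. The interaction was not called (log2 0.25, SE 0.49, adjusted p = 0.89), but it was with an added constant of 5 (log2 1.46).

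NOTUM, a secreted enzyme that strips the lipid from Wnt proteins, and APCDD1, a membrane-anchored inhibitor, behaved alike. NOTUM (chr17:79910383-79919057, minus strand, hg19) stood at 1758 and 1833 normalized reads in controls at 0 h and 1215 and 949 at 16 h, whereas mutp53-depleted cells had 413 and 285 at 0 h and 123 and 62.9 at 16 h. APCDD1 (chr18:10454625-10488698, plus strand) stood at 16870 and 14980 (0 h) and 10976 and 9424 (16 h) in control cells, and at 5426 and 4260.2 (0 h) and 1318 and 765 (16 h) in mutp53-depleted cells. For both genes the 4 groups were in the same order without overlap, control cells at 0 h being highest and mutp53-depleted cells at 16 h lowest. Depletion lowered NOTUM by 5.22-fold at 0 h (log2 -2.38, SE 0.21, adjusted p = 3.2e-08) and 12.1-fold at 16 h (log2 -3.59, SE 0.21, adjusted p = 1.6e-10). It lowered APCDD1 by 3.31-fold at 0 h (log2 -1.73, SE 0.16, adjusted p = 8.1e-08) and 10.1-fold at 16 h (log2 -3.34, SE 0.16, adjusted p = 1.8e-11).

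With TNF-α both genes fell in mutp53-depleted cells, NOTUM by 3.86-fold (log2 -1.95, SE 0.21, adjusted p = 1.4e-06) and APCDD1 by 4.78-fold (log2 -2.26, SE 0.16, adjusted p = 8.8e-09). In control cells both changes were below 2-fold (log2 -0.74, SE 0.21, adjusted p = 0.013 and log2 -0.64, SE 0.16, adjusted p = 0.0065). The interaction was called for APCDD1 (log2 -1.61, SE 0.23, adjusted p = 0.00043), also under each of the 17 alternatives. For NOTUM it was called (log2 -1.21, SE 0.30, adjusted p = 0.032), but 9 of the 17 alternatives lost the call. They were DESeq2, no filter, an added constant of 0.1 and leaving out any of 6 libraries, namely without control 0 h replicate A (log2 -1.18), without control 0 h replicate B (log2 -1.24), without control 16 h replicate A (log2 -1.03), without control 16 h replicate B (log2 -1.39), without mutp53-depleted 0 h replicate A (log2 -0.94) and without mutp53-depleted 16 h replicate B (log2 -0.73).

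SFRP5 and DKK1 rose with TNF-α and parted after depletion. SFRP5, a secreted protein with a Frizzled-like domain that binds Wnt ligands, stood at 441 and 459 normalized reads in controls at 0 h and 1029.6 and 909 at 16 h, whereas mutp53-depleted cells had 178 and 158 at 0 h and 316 and 242 at 16 h. It was lower after depletion without overlap (log2 -1.42, SE 0.12, adjusted p = 1.8e-08 and log2 -1.80, SE 0.12, adjusted p = 7.9e-10), and its rise with TNF-α was called in control cells (log2 1.10, SE 0.12, adjusted p = 1.2e-06) and below the fold of 2 in mutp53-depleted cells (log2 0.72, SE 0.12, adjusted p = 0.00018). DKK1, the best studied LRP6 blocker, stood at 41.4 and 62.1 in controls at 0 h, 139 and 115 after depletion, 254 and 239 in controls at 16 h and 529.9 and 518 with both depletion and TNF-α. The groups kept that order without overlap, the order seen for WNT9A. Depletion raised DKK1 at 0 h (log2 1.30, SE 0.17, adjusted p = 3e-06) and 16 h (log2 1.08, SE 0.17, adjusted p = 2.5e-05), and TNF-α raised it in control cells (log2 2.26, SE 0.17, adjusted p = 7.2e-09) and mutp53-depleted cells (log2 2.04, SE 0.17, adjusted p = 3.9e-08).

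DKK3, a divergent member of the Dickkopf family, changed with TNF-α. It stood at 181 and 232 normalized reads in controls at 0 h and 68.6 and 75.4 at 16 h, whereas mutp53-depleted cells had 151 and 159 at 0 h and 97.2 and 107 at 16 h. The 16 h libraries lay below the 0 h libraries in both lines, and the fall was called in control cells (log2 -1.50, SE 0.16, adjusted p = 1.1e-06) and below the fold of 2 in mutp53-depleted cells (log2 -0.60, SE 0.16, adjusted p = 0.01). The interaction was called (log2 0.90, SE 0.23, adjusted p = 0.039), but 10 of the 17 alternatives lost it. They were DESeq2, no filter, an added constant of 0.1 and leaving out any library except control 0 h replicate A, with values between 0.72 and 0.97: without control 0 h replicate B (log2 0.72), without control 16 h replicate A (log2 0.83), without control 16 h replicate B (log2 0.97), without mutp53-depleted 0 h replicate A (log2 0.86), without mutp53-depleted 0 h replicate B (log2 0.94), without mutp53-depleted 16 h replicate A (log2 0.97) and without mutp53-depleted 16 h replicate B (log2 0.83).

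**Figure D5:**
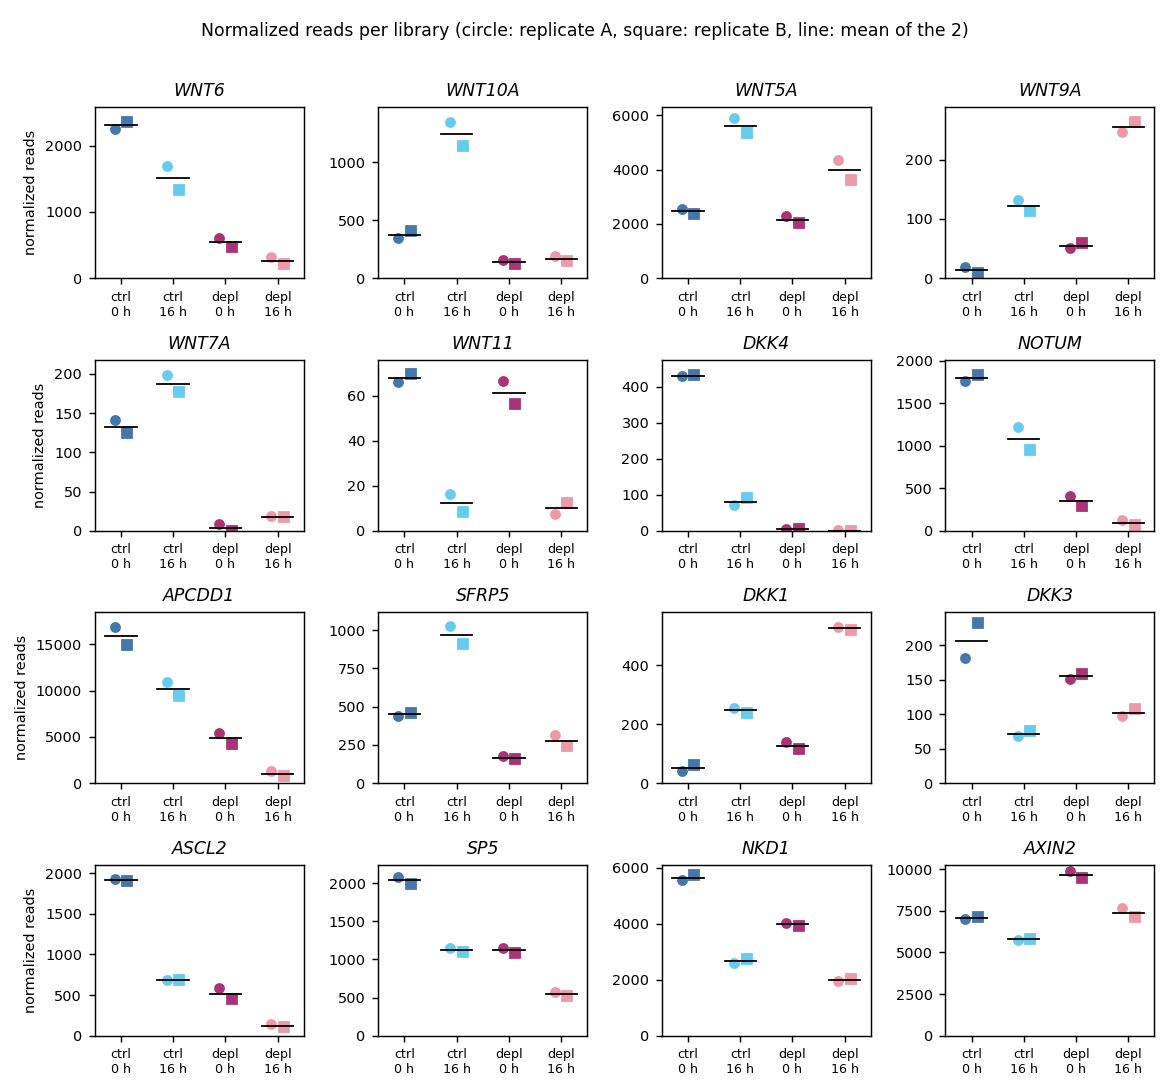
Normalized reads of 16 Wnt genes in each of the 8 libraries, each panel with its own vertical axis from 0 (circles, replicate A; squares, replicate B; line, mean of the 2). DKK4 and WNT7A are near 0 in mutp53-depleted cells, DKK1 and WNT9A are highest in mutp53-depleted cells at 16 h, and AXIN2 varies by less than 2-fold.

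β-catenin and its destruction complex were called in no contrast. CTNNB1 stood at 10601 and 10811 normalized reads in controls at 0 h and 7832 and 8234 at 16 h, whereas mutp53-depleted cells had 12345 and 11760 at 0 h and 9335 and 9035 at 16 h. AXIN2, a scaffold of the complex and the target gene used most widely as a readout of the pathway, stood at 6984 and 7140 (0 h) and 5769 and 5783 (16 h) in control cells and at 9859.5 and 9489.8 (0 h) and 7668 and 7109.7 (16 h) in mutp53-depleted cells. It was thus above control at both times (log2 0.45, SE 0.07, adjusted p = 2e-05 and log2 0.35, SE 0.07, adjusted p = 0.00026), the opposite direction to NOTUM and APCDD1. The window around AXIN2 on chromosome 17 had medians of 0.43 and 0.45, and with the neighbours' median of 0.40 for the mean of both times removed, the changes of AXIN2 were 0.05 and -0.05.

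APC stood at 612 and 653 normalized reads in controls at 0 h and 516 and 568 at 16 h, whereas mutp53-depleted cells had 1006 and 1012 at 0 h and 814 and 829 at 16 h (log2 0.67, SE 0.08, adjusted p = 1.3e-06 and log2 0.60, SE 0.08, adjusted p = 5.2e-06), where the lines did not overlap. AXIN1 stood at 795 and 789 (0 h) and 696 and 649 (16 h) in control cells and at 718 and 724 (0 h) and 764 and 736 (16 h) in mutp53-depleted cells. Its depletion changes of -0.14 (adjusted p = 0.15) and 0.16 (adjusted p = 0.1) passed no threshold. With the neighbours' median removed, the changes of AXIN1 were 0.34 and 0.63 and those of APC 0.39 and 0.32. Those of CTNNB1 went from 0.17 and 0.19 to -0.32 and -0.30, and none of these was called. With TNF-α the changes of the 4 genes lay between -0.41 and -0.22 in control cells and between -0.39 and 0.06 in mutp53-depleted cells.

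The feedback ligases RNF43 and ZNRF3, which remove Frizzled receptors from the cell surface, were called in no contrast. RNF43 stood at 1822 and 1660.4 normalized reads in controls at 0 h and 964 and 794 at 16 h, whereas mutp53-depleted cells had 1519.8 and 1514 at 0 h and 861 and 889 at 16 h. Its depletion changes were -0.20 and -8.04e-05, and with the neighbours' median removed -0.79 and -0.60, also not called. All 16 h libraries were below all 0 h libraries, and the TNF-α change in control cells narrowly missed the fold of 2 (log2 -0.99, SE 0.09, adjusted p = 6.6e-08), being called without control 0 h replicate B (log2 -1.06) and without control 16 h replicate A (log2 -1.13). ZNRF3 stood at 1955 and 2051 (0 h) and 1475 and 1387 (16 h) in control cells and at 1672 and 1628 (0 h) and 1203 and 1276 (16 h) in mutp53-depleted cells, with TNF-α changes of -0.49 (adjusted p = 3.8e-05) and -0.41 (adjusted p = 0.00023).

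LGR4 and LGR5 are receptors for R-spondins, which protect Frizzled from these ligases, and LGR5 marks intestinal stem cells. LGR4 stood at 100.2 and 84.8 normalized reads in controls at 0 h and 32.9 and 36.99 at 16 h, whereas mutp53-depleted cells had 59.6 and 54.9 at 0 h and 25.1 and 37.02 at 16 h. It fell with TNF-α in control cells (log2 -1.38, SE 0.25, adjusted p = 0.00033), and in mutp53-depleted cells the change missed the fold of 2 (log2 -0.88, SE 0.25, adjusted p = 0.012), where it was called without mutp53-depleted 16 h replicate B (log2 -1.15). LGR5 had 5.81 and 1.51 normalized reads in controls at 0 h, 2.90 and 0 at 16 h and 1.34 and 0 after depletion at 0 h, with no read after depletion at 16 h, too few to compare.

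NKD1 and NKD2 bind Dishevelled, the relay between receptor and destruction complex, and dampen the pathway. NKD1 stood at 5554 and 5731 normalized reads in controls at 0 h and 2610.2 and 2742 at 16 h, whereas mutp53-depleted cells had 4030.1 and 3913 at 0 h and 1967 and 2009 at 16 h. Its fall with TNF-α was nearly the same in both lines, log2 -1.08, SE 0.07, adjusted p = 5.4e-10 in control cells and log2 -0.998, SE 0.07, adjusted p = 2.3e-09 in mutp53-depleted cells. The first was called and the second missed the fold of 2, passing it without mutp53-depleted 0 h replicate B (log2 -1.02) and without mutp53-depleted 16 h replicate B (log2 -1.01). NKD2 stood at 1136 and 1049.9 (0 h) and 596 and 573 (16 h) in control cells and at 555 and 569 (0 h) and 238 and 223 (16 h) in mutp53-depleted cells. It was called lower after depletion at 16 h (log2 -1.34, SE 0.09, adjusted p = 5.1e-10) and lower with TNF-α in mutp53-depleted cells (log2 -1.28, SE 0.09, adjusted p = 3.1e-09). At 0 h the depletion change was just short of the fold of 2 (log2 -0.96, SE 0.09, adjusted p = 3.8e-08) and was called without control 0 h replicate B (log2 -1.01). The window around NKD2 on chromosome 5 had medians of -0.52 and -0.59.

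Of the 4 TCF/LEF factors, the nuclear partners of β-catenin, LEF1 alone was called. LEF1 stood at 687 and 697 normalized reads in controls at 0 h and 413 and 467 at 16 h, whereas mutp53-depleted cells had 1124 and 1152 at 0 h and 884 and 906 at 16 h. It was higher after depletion at 16 h (log2 1.03, SE 0.08, adjusted p = 7.1e-09), a call missed without control 16 h replicate A (log2 0.94), and at 0 h below the fold of 2 (log2 0.72, SE 0.08, adjusted p = 6.9e-07). TCF7 stood at 1782 and 1595 (0 h) and 1650.2 and 1556 (16 h) in control cells and at 1276 and 1212 (0 h) and 1119 and 1108 (16 h) in mutp53-depleted cells, with depletion changes of -0.44 (adjusted p = 7.5e-05) and -0.52 (adjusted p = 1.1e-05). TCF7L2, the main factor of the intestinal epithelium, stood at 412 and 383 (0 h) and 386 and 337 (16 h) in control cells and at 528 and 455 (0 h) and 435 and 412 (16 h) in mutp53-depleted cells, with depletion changes of 0.30 (adjusted p = 0.02) and 0.23 (adjusted p = 0.07). TCF7L1 was called in no contrast.

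ASCL2, the transcription factor that controls the intestinal stem cell programme, fell with depletion and with TNF-α. ASCL2 (chr11:2289728-2292182, minus strand, hg19) stood at 1922 and 1906 normalized reads in controls at 0 h and 679.6 and 687 at 16 h, whereas mutp53-depleted cells had 582 and 449.7 at 0 h and 138 and 104 at 16 h. Control cells at 0 h were highest and mutp53-depleted cells at 16 h lowest, and the 4 groups did not overlap. Depletion lowered it at 0 h (log2 -1.90, SE 0.12, adjusted p = 6.2e-10) and 16 h (log2 -2.503, SE 0.12, adjusted p = 1.9e-11), and TNF-α in control cells (log2 -1.48, SE 0.12, adjusted p = 3.8e-08) and mutp53-depleted cells (log2 -2.09, SE 0.12, adjusted p = 6.7e-10). The interaction was not called (log2 -0.60, SE 0.18, adjusted p = 0.08), but it was without mutp53-depleted 0 h replicate B (log2 -0.79), without mutp53-depleted 16 h replicate A (log2 -0.81) and with the replicate letter as a block (log2 -0.60).

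SP5, a zinc finger factor that β-catenin induces, stood at 2085 and 1994 normalized reads in controls at 0 h and 1148 and 1093 at 16 h, whereas mutp53-depleted cells had 1154 and 1087 at 0 h and 576 and 515 at 16 h. The control libraries at 16 h and the mutp53-depleted libraries at 0 h overlapped, with the other 2 groups above and below them. Depletion changed it by -0.86 at 0 h (adjusted p = 3.9e-08, below the fold of 2) and lowered it at 16 h (log2 -1.04, SE 0.08, adjusted p = 3.6e-09), a call missed without mutp53-depleted 16 h replicate B (log2 -0.96). TNF-α changed it by -0.86 in control cells (adjusted p = 1e-07, below the fold of 2) and lowered it in mutp53-depleted cells (log2 -1.04, SE 0.08, adjusted p = 1.3e-08). That last call was missed without mutp53-depleted 0 h replicate A (log2 -0.997), without mutp53-depleted 16 h replicate B (log2 -0.96), with DESeq2, with both edgeR tests and after median ratio scaling (log2 -0.97).

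Other genes of the pathway were counted from 5 lists of 76 genes, 62 of them tested. After depletion 3 were called higher and 11 lower at 0 h, or 4.84% and 17.7% (5.89% and 9.55% of all tested genes), and 1 higher and 9 lower at 16 h, or 1.61% and 14.5% (5.03% and 10.2%). TNF-α lowered 10 and raised none in control cells, where it lowered 4.27% and raised 2.97% of all tested genes. In mutp53-depleted cells it lowered 7 and raised 2 (4.5% and 1.86% of all), while the interaction was called lower for 4 and higher for 3 (2.21% and 0.655% of all). The largest falls called at both times were those of TDGF1, a co-receptor of Nodal signalling (-2.40 and -2.52), PROX1, a homeobox factor of colon tumours (-2.32 and -2.58), and EPHB2, a crypt receptor of ephrins (-2.11 and -2.05). TLE1, a co-repressor that binds TCF factors in the absence of β-catenin, was the only one called higher at both times, from 67.5 and 53.02 to 429.6 and 436 normalized reads at 0 h (log2 2.83, SE 0.18, adjusted p = 3.8e-10). At 16 h it stood at 32.9 and 22.8 in control cells and 368 and 371 in mutp53-depleted cells (log2 3.71, SE 0.18, adjusted p = 1.3e-11). Kinases and scaffolds of the destruction complex and Dishevelled genes gave 1 call of 19 at each time (lower), a different gene each time. These were APC2 at 0 h (log2 -1.74) and FRAT1 at 16 h (log2 -1.33). That is 5.26% at each time, where 9.55% and 10.2% of all tested genes were called lower. TDGF1 is weakly expressed, at 23.2 and 34.8 normalized reads in controls and 7.37 and 2.74 in mutp53-depleted cells at 0 h.

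Markers were counted beside these results. The 10 markers of colon epithelium summed to between 69080 and 73780 normalized reads in controls at 0 h and 59120 and 59740 at 16 h, and after depletion to between 53530 and 53540 at 0 h and 43680 and 44880 at 16 h, with CDX1 at 0 in every library. After depletion 3 of the 8 tested, VIL1, CLDN4 and EPCAM, were called lower at each time, where 9.55% and 10.2% of all tested genes were. None was called higher, and 2 of the 8 lay above 0 at each time, KRT19 (log2 0.259 and 0.255) and CDX2 (0.123 and 0.212). With TNF-α 3 of the 8 were called lower in control cells, CDH1 (log2 -2.51), VIL1 (-2.10) and CDX2 (-1.07), where 4.27% of all tested genes were. In mutp53-depleted cells CDH1 (-2.15) and VIL1 (-2.21) were called lower, where 4.5% of all tested genes were. The summed markers of each other cell type were at most 178 normalized reads in each library, with COL3A1, DCN, PTPRC, MS4A1, KDR and TEK at 0, but they were higher after depletion. The 8 fibroblast markers summed to 39.2 and 39.4 in controls and 163 and 178 after depletion at 0 h, and to between 29.9 and 32.9 in controls and 57.02 and 65.4 after depletion at 16 h. Both of those tested were called higher at 0 h, PDGFRB (log2 3.53) and COL1A1 (1.51), where 5.89% of all tested genes were, and neither at 16 h. PDGFRB also fell with TNF-α in mutp53-depleted cells (-2.96). The 10 leukocyte markers summed to between 69.7 and 89.9 in controls and 116.6 and 145 after depletion over both times. Of the 5 tested, CD4 (log2 1.88, SE 0.75, adjusted p = 0.044) and CD68 (1.09) were called higher at 0 h, where 5.89% of all tested genes were. None was called at 16 h, where 5.03% of all tested genes were called higher. CD14 lay below 0 at both times (-0.89 and -0.78) and was not called. With TNF-α ITGAM was called higher in both lines (4.08 and 4.0), where 1.39% of all tested genes were. CD68 was called higher (1.08) and CD14 lower (-1.21) in control cells alone, where 2.97% of all tested genes were called higher and 4.27% lower. The 5 endothelial markers summed to between 5.69 and 7.26 in controls and 17.6 and 28.8 after depletion over both times. VWF, the only one tested, was called higher at both times (1.84 and 2.62), where 3.35% of all tested genes were. The part of these marker changes in the Wnt gene changes was not tested.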

How the data were processed

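The mRNA-seq libraries of SW480 cells, 2 biological replicates in each of 4 groups, were analysed. ChIP-seq and nascent RNA (GRO-seq) data of the series were not analysed here. The authors mapped single-end reads with STAR and counted them per RefSeq gene model. STAR, HOMER and edgeR are named in the submitters' processing notes. The signal values deposited by the authors are reads scaled by 1 factor per library, so that the totals are equal. The deposited length of each gene's exons served for values per kb. Columns of the authors' own comparisons (log2 fold changes, p-values and adjusted p-values) were not used. The header and coordinates of the table give hg19, whereas the methods name hg38. Values became whole reads, within 0.0051 normalized reads, for 99.98% to 100% of genes after division by the value of 1 read. Reads on genes were 74.5% to 79.5% of the totals in the header.

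The log2(value + 1) of the 14800 genes whose mean reached 2.5 was fitted with limma 3.58.1 (R 4.3.3; lmFit, contrasts.fit, eBayes with trend) on 4 group means over 8 libraries. Replicates of a group differed beyond sampling noise (chi-square of 2.07 to 3.93 per gene). Replicate letters were not treated as pairs in this fit. Between groups, the deviations of the letters correlated by -0.0773 to 0.216 over 11023 genes, and a shared effect of the letter was not tested. The members, their roles and the gene lists were chosen with earlier results of these data known. Named were each member called in any of the 5 contrasts, 13 members listed whatever their values, the members next to the minimum, and of the other lists the 3 largest changes in each direction called at both times. One check of the labels is not reported here. Ratios of reads have exact 95% intervals, which cover counting error alone. Promoters came from a RefSeq table (GRCh38.p14). Alternatives were edgeR 4.0.16 (exact and quasi-likelihood tests) and DESeq2 1.42.0 on recovered reads, median ratio scaling, added constants of 0.1 and 5, no filter, a mean of at least 10, the replicate letter as a block, removal of the median over 51 neighbouring genes of the depletion change averaged over both times, and leaving out each library. The procedure was tested on simulated data for the TNF-α comparison in control cells alone. These had the same spread for all genes and changes only in genes well above the minimum. Recovery of changes in scarce genes and of the interaction was not tested. Tables and plots were made in Python 3.11.15 with matplotlib 3.10.9, pandas 2.3.3, scipy 1.17.1 and numpy 2.4.6.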

Additional observations from a re-analysis of the deposited data

Results flagged for a closer look

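The TNF-α response of 4 genes differed between the lines by the test of the difference itself (limma, Benjamini-Hochberg adjusted over all genes). On the log2 scale the response of mutp53-depleted cells less that of control cells was -1.61 for APCDD1, -1.51 for WNT10A, -1.21 for NOTUM and 0.90 for DKK3. APCDD1 and NOTUM fell in mutp53-depleted cells and changed by less than 2-fold in control cells. WNT10A rose in control cells and was not called in mutp53-depleted cells. DKK3 fell in control cells and changed by less than 2-fold in mutp53-depleted cells. The APCDD1 and WNT10A differences were called under each of 17 alternatives, whereas that of NOTUM was lost under 9 and that of DKK3 under 10. Groups of 2 libraries are too small for a search for single outlying libraries.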

How the results depend on the processing

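The counts of Wnt genes called stayed within 1.5 times of the reported ones in 4 of the 5 contrasts. Without each library in turn they were 14 to 16 for depletion at 0 h (16 reported), 19 to 22 at 16 h (22), 12 to 14 for TNF-α in control cells (13) and 9 to 14 in mutp53-depleted cells (11). The interaction count of 4 ranged from 2 to 5 without 1 library and was 2 with DESeq2, with no filter and with an added constant of 0.1. An added constant of 5 gave an interaction count of 5, gaining DKK4 (log2 1.46). The block on the replicate letter gave an interaction count of 5, gaining ASCL2, and changed no other count (16, 22, 13 and 11). Over all tested genes this block gave 153 interaction calls higher and 406 lower, where the reported fit gave 97 and 327. The letters are shared by the groups but were not treated as pairs in the reported fit. Single values were followed for the members called in at least 1 contrast and those listed whatever their values. Of these, 3281 values kept their side of the threshold, 70 lost a call, 22 gained one and none reversed. The remaining members are not in these counts, among them WNT8B, which gained calls without control 16 h replicate B. The cause of these changes was not tested, except that calls lost with the neighbouring genes' median removed follow from that median. Counting error limits scarce genes, as the wide intervals of the read ratios of DKK4, WNT7A and WNT4 show.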
